A study of Homo sapiens with 9 samples.

Results

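Gene expression was compared between PF1066R, an H3122 line made resistant to crizotinib, and Parental, the sensitive H3122 cells it descends from. H3122 is a human lung adenocarcinoma line driven by an EML4-ALK fusion, in which the kinase domain of ALK is joined to part of the microtubule-binding protein EML4. Crizotinib (PF1066 in the labels, where the resistant line is also called H3122 CR) blocks the ALK kinase and also MET and ROS1. Both groups carry the fusion, which the labels give as E13 of EML4 and A20 of ALK, and 3 samples of each were hybridised to Illumina bead arrays. These 6 arrays were taken by the line named in their labels from the 9 of the study, and all 13769 genes that passed the filter on dim probes were compared, with no gene chosen by its values. The other 3 arrays hold X376R, an H3122 line resistant to another ALK inhibitor, X-376. They entered the normalization, the filter, the choice of probe and the shared estimate of spread. Beyond that, they serve only to set PF1066R beside a second resistant line. The labels do not say whether PF1066R is 1 clone, whether the replicates were separate cultures, or whether crizotinib was present at lysis. Each p-value thus rests on the spread among the 9 arrays alone, and that spread may be technical. Resistance, drug exposure and other traits of this single line cannot be told apart.

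A fused ALK kinase signals without ligand through the RAS-ERK, PI3K-AKT and JAK-STAT pathways, and ERK drives both early transcription factors and its own inhibitors, such as the DUSP phosphatases. Lung cancer cells are known to escape ALK inhibitors by mutation or amplification of ALK, by signalling through other receptor kinases, by drug efflux and by changes of cell state. Arrays measure transcripts, so mutations and phosphorylation were not analysed here.

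Mean raw signal was 201 ± 30.3 units in PF1066R and 254 ± 37.9 units in Parental (SD, n = 3 each), and 39.3% to 59.2% of probes lay above background on a PF1066R array, against 41.8% to 65.7% on a Parental array. Levels are quantile-normalized log2 signals and changes are PF1066R minus Parental on that scale, given with the SE of a limma fit of 1 mean per line (n = 3 arrays each). Of 13769 genes 2541 passed a Benjamini-Hochberg adjusted p of 0.05 (18.5%), with 1251 higher (9.09%) and 1290 lower (9.37%) in PF1066R. The counts of each gene group below are to be read beside these shares. At least 2-fold changes were fewer, 93 higher (0.675%) and 137 lower (0.995%), and 1507 of the called genes changed by less than 1.5-fold. In 33.7% of all genes the 3 PF1066R arrays lay wholly above or wholly below the 3 Parental arrays, so a gap between the lines in a single gene is common. When arrays were instead scaled only by their medians, the same test gave 215 genes higher and 2227 lower, the median change of all genes was -0.12 against -0.01, and small rises lost their call, so the counts of a gene group under median centring are given beside its own where a direction or most of its calls changed. PF1066R arrays were on average the dimmer ones, and with array brightness as a covariate 1254 genes passed. Of the changed genes named here that had several probes, every other probe passed in the same direction for 42 of 83, and another probe passed in the opposite direction for 0. Another probe showed less than 25% of the change for 31 of them, namely ACACA, ACAT2, AKR1C2, ATF4, ATG4A, CD44, DSP, FABP5, FGFR3, HMGA1, HOPX, ITGA3, ITGB5, LAMB3, LAMP2, LBH, LRIG1, LSS, MDK, MINDY1, MSMO1, MUC4, PHACTR3, PSMB8, PSMB9, SMOX, SPRY4, ST3GAL1, STMN1, TAPBP and TNFRSF10B, and their values are those of the brightest probe alone. The epithelial origin of the cells was visible on all 6 arrays, where EPCAM, a surface protein of epithelial cells, gave 11.99, 11.75 and 11.58 in PF1066R, against 11.56, 11.91 and 11.69 in Parental.

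**Figure D1:**
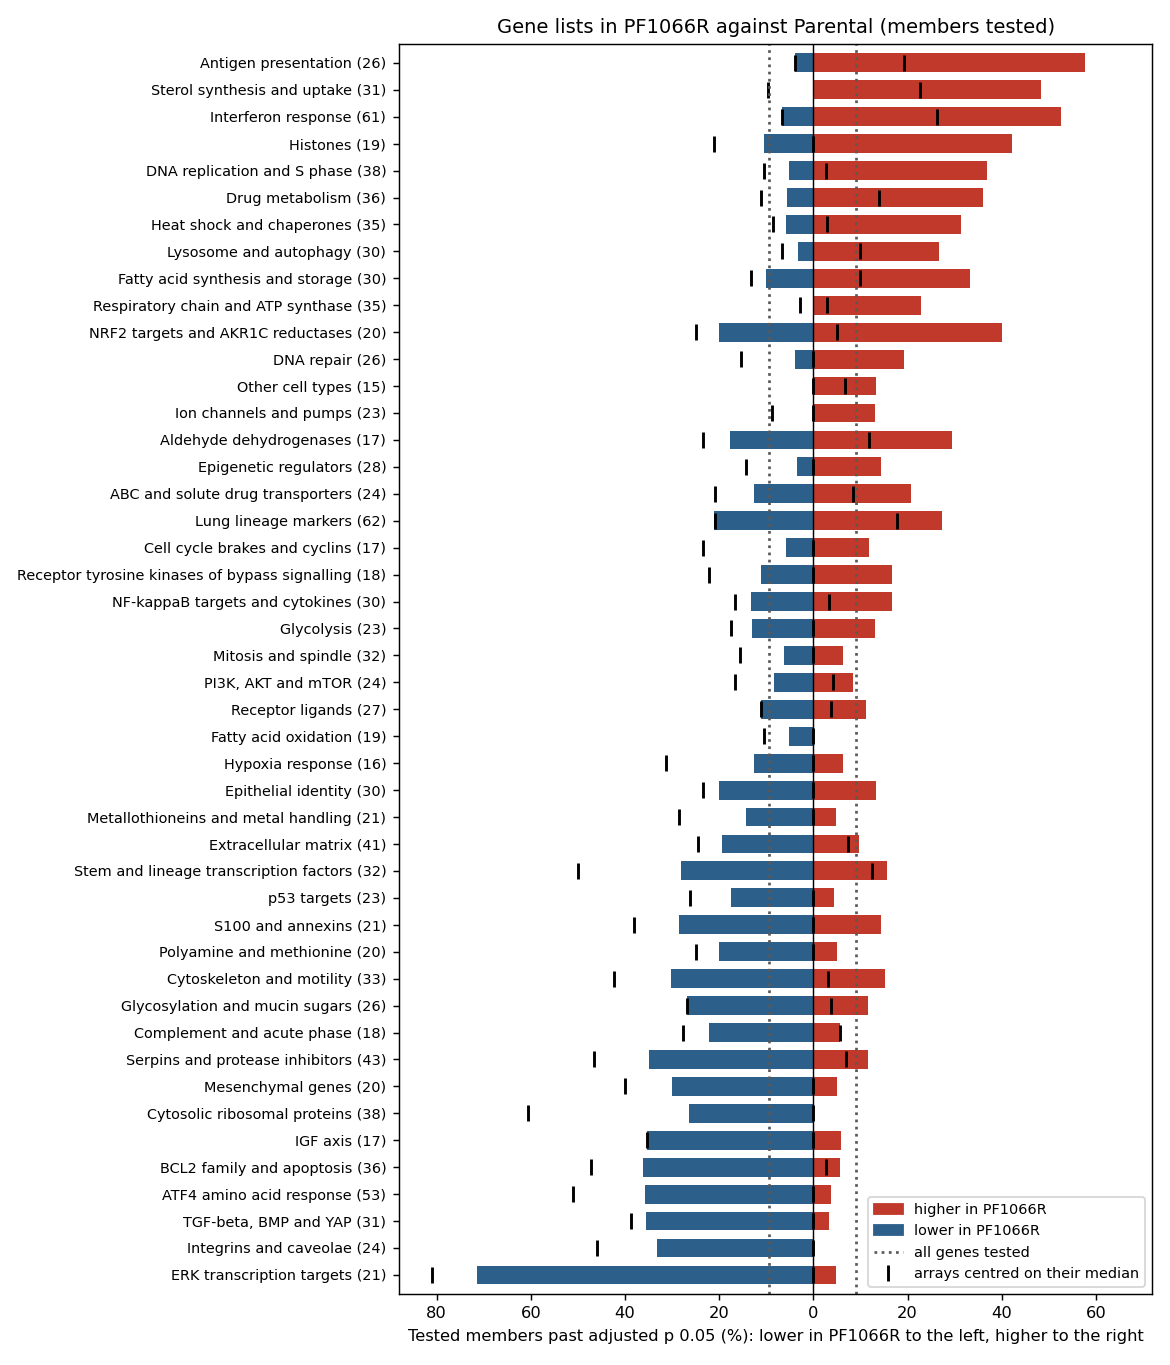
Bars give the percentage of tested members of each gene list that passed an adjusted p of 0.05, higher in PF1066R to the right and lower to the left, with the number of members tested in brackets; dotted lines mark all genes tested (9.09% and 9.37%), and black ticks give the shares with arrays centred on their median. Antigen presentation, sterol and interferon genes lead the higher side and ERK targets the lower, and the ticks of histone and DNA replication genes lie near 0 on the higher side.

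ALK was the changed member of the fusion pair. The ALK probe gave 9.39, 9.15 and 9.11 in PF1066R, against 7.21, 7.34 and 7.19 in Parental, a 3.92-fold rise (1.97 ± 0.12, adjusted p = 4.80e-09). The lowest PF1066R array lay well above the highest Parental array. EML4 gave 9.65, 9.64 and 9.91 in PF1066R, against 9.91, 9.65 and 9.60 in Parental, with overlapping arrays and a change of 0.01 ± 0.13 (adjusted p = 0.969). The position of the probes within the transcripts was not used, so fused and unfused transcripts cannot be separated. The 12 tested genes nearest to ALK on chromosome 2, 6 on each side, changed by -0.30 to 0.49 with a median of 0.01, and only LBH, a developmental transcription regulator, passed the threshold (0.49 ± 0.12, adjusted p = 0.00582). A second LBH probe changed by -0.03. Among the 12 genes nearest to EML4 none was higher, and GEMIN6, a subunit of the SMN complex that assembles splicing particles, and ZFP36L2, which destabilises AU-rich transcripts, were lower (-0.99 and -0.96). Gene copy number was not analysed here. Of 10 adaptors and kinases placed directly below ALK, SRC (-0.62 ± 0.13) and CRKL (-0.41 ± 0.11) were lower and none was higher. The lower share was 20%, against 9.37% of all genes.

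**Figure D2:**
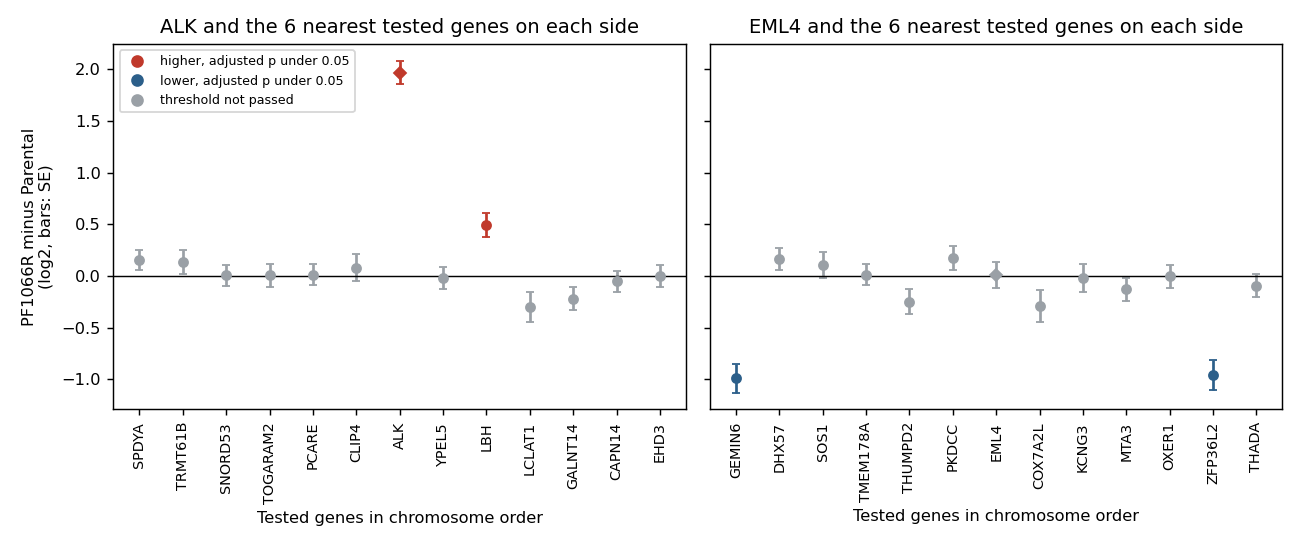
Change in PF1066R against Parental (log2, bars are SE) of ALK and EML4, drawn as diamonds, and of the 6 nearest tested genes on each side in chromosome order. ALK stands at 1.97 while its 12 neighbours lie between -0.30 and 0.49.

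RNASE1, MSMB and ALDH3A1 rose most and SERPINE2, SERPINA3 and PRSS3 fell most. Only genes whose PF1066R and Parental arrays did not overlap were ranked among the largest changes. For ranked genes a lack of overlap was thus fixed by this rule and is not a further result. RNASE1, a secreted ribonuclease, gave 9.09, 9.15 and 9.66 in PF1066R, against 6.37, 6.51 and 6.36 in Parental (2.89 ± 0.15). MSMB, a mucosal secretory protein, gave 10.32, 10.15 and 10.51 in PF1066R, against 7.47, 7.54 and 7.51 in Parental (2.82 ± 0.14), and ALDH3A1, which oxidises aromatic and lipid aldehydes, gave 9.81, 9.85 and 9.80 in PF1066R, against 6.95, 7.16 and 7.09 in Parental (2.76 ± 0.12). In all 3 the lowest PF1066R array lay more than 2 log2 units above the highest Parental array. Other genes among the 20 highest were STXBP6, which binds SNARE proteins of vesicle fusion (1.82 ± 0.14), LRRC26, a subunit of large potassium channels in secretory epithelium (1.77 ± 0.14), and CD83, an immune surface protein (1.66 ± 0.11). On the lower side SERPINE2, a secreted inhibitor of thrombin and plasminogen activators, gave 7.09, 6.98 and 6.79 in PF1066R, against 9.99, 9.85 and 10.04 in Parental (-3.00 ± 0.13, adjusted p = 3.19e-10). SERPINA3, an acute-phase inhibitor of chymotrypsin-like proteases, gave 6.81, 6.95 and 6.99 in PF1066R, against 9.32, 10.19 and 9.64 in Parental (-2.80 ± 0.16), and the trypsin PRSS3 gave 6.21, 6.04 and 6.36 in PF1066R, against 8.78, 8.73 and 8.53 in Parental (-2.48 ± 0.12). PRSS3 was above background on 2 of the 3 PF1066R arrays, and its probe may also read near-identical trypsin genes. Below them stood CYBA, the membrane subunit of NADPH oxidases (-1.94 ± 0.15), FHL2, a LIM-domain cofactor (-1.88 ± 0.10), PHACTR3, a regulator of protein phosphatase 1 and actin (-1.86 ± 0.12), RAI14, an actin-binding protein (-1.77 ± 0.11), and INHBE, a subunit of activin E (-1.68 ± 0.14).

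**Figure D3:**
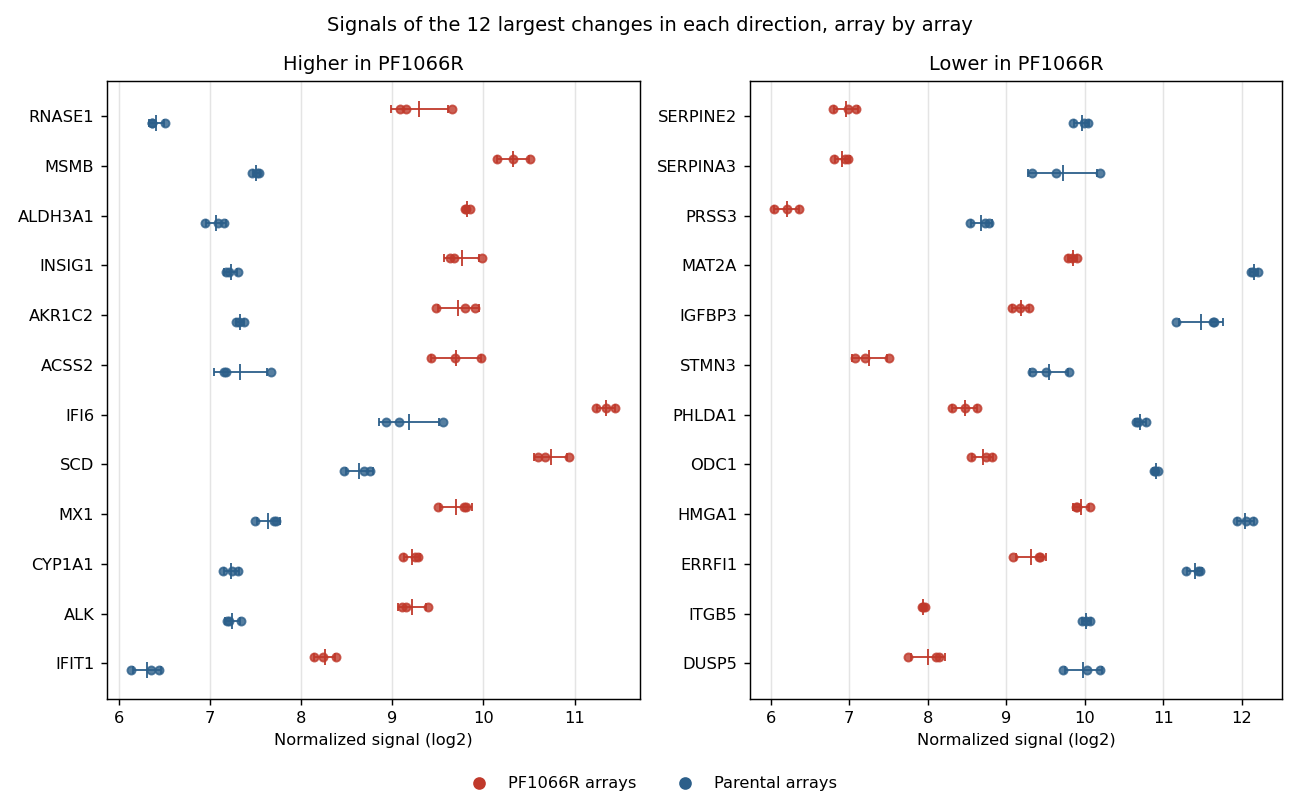
Normalized log2 signal on each array for the 12 genes with the largest changes in each direction; dots are arrays, vertical marks and bars are mean and SD of 3 arrays. The PF1066R and Parental arrays do not overlap for any of the 24 genes, since genes were named only where they did not.

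Receptors outside the fusion moved in both directions, and each that passed changed by less than ALK. Of 33 receptor tyrosine kinases looked for, 18 passed the filter on dim probes. Of these 18, 3 were higher (16.7%) and 2 lower (11.1%), against 9.09% and 9.37% of all genes. With median-centred arrays 0 were higher and 4 lower. MET, the hepatocyte growth factor receptor and itself a crizotinib target, gave 7.53, 7.46 and 7.47 in PF1066R, against 8.16, 8.60 and 8.90 in Parental (-1.06 ± 0.15, adjusted p = 7.79e-05). EPHA2, a receptor for membrane-bound ephrins, gave 6.83, 6.95 and 7.11 in PF1066R, against 8.12, 7.87 and 8.05 in Parental (-1.05 ± 0.11). For both, every PF1066R array lay below every Parental array. FGFR3 (0.76 ± 0.12), MERTK (0.58 ± 0.12) and KIT (0.45 ± 0.11) were higher, although none of these passed with median-centred arrays and a second FGFR3 probe changed by -0.06. EGFR gave 7.12, 7.18 and 7.39 in PF1066R, against 6.91, 7.06 and 7.10 in Parental (0.21 ± 0.11, adjusted p = 0.229), and ERBB2 and ERBB3 changed by 0.16 ± 0.13 and 0.25 ± 0.12, none past the threshold, although another ERBB3 probe passed at 0.54. IGF1R, the type 1 insulin-like growth factor receptor, changed by -0.12 ± 0.10 (adjusted p = 0.489) and was above background on 1 of 3 PF1066R and 3 of 3 Parental arrays.

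Of 27 receptor ligands tested, 3 were higher and 3 lower, shares close to the 9.09% and 9.37% of all genes. The higher count was 1 with median-centred arrays, with the brightness covariate and without PF1066R replicate 3, Parental replicate 1 or Parental replicate 3. EFNA1, an ephrin that binds EPHA receptors, gave 10.02, 9.72 and 10.16 in PF1066R, against 8.99, 8.92 and 8.74 in Parental (1.09 ± 0.13, adjusted p = 1.41e-05), and a second probe changed by 1.04. KITLG, the KIT ligand (0.38 ± 0.12), and PDGFC, a PDGF receptor ligand (0.37 ± 0.12), were slightly higher. MDK, a heparin-binding growth factor reported to bind ALK, was lower (-0.66 ± 0.12), and FGF19, an endocrine FGF, and HBEGF, which activates EGFR, were below background on all PF1066R arrays, at least 1.52-fold and 1.23-fold lower. A lower bound of this kind sets the brighter line's mean against the detection floor of the arrays on which the probe was dim.

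More members of the insulin-like growth factor axis were lower than higher, and IGFBP3 changed most. IGFBP3, the main serum carrier of these factors, gave 9.08, 9.18 and 9.29 in PF1066R, against 11.64, 11.63 and 11.15 in Parental (-2.29 ± 0.17, adjusted p = 5.34e-08). IGFBP4 (-0.85) and IGFBP6 (-0.58) were also lower, while IGFBP2 was higher (0.54 ± 0.15). The IGFBP2 call was lost with median-centred arrays, with the brightness covariate, and without PF1066R replicate 2 or Parental replicate 3. STC2, a secreted inhibitor of the protease that cleaves IGFBP4 (-1.17), GRB10, an adaptor that restrains insulin and IGF receptors (-0.82), and the mRNA-binding IGF2BP2 (-0.79) were lower too. In all, 6 of 17 members were lower (35.3%) and 1 higher (5.88%), against 9.37% and 9.09% of all genes.

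Genes that ERK is known to induce were mostly lower. Of 21 transcription targets tested, 15 were lower (71.4%) and 1 higher (4.76%), with a median change of -0.93. Of all genes 9.37% were lower and 9.09% higher. PHLDA1, a pleckstrin-homology protein induced by ERK, gave 8.47, 8.31 and 8.63 in PF1066R, against 10.78, 10.67 and 10.65 in Parental (-2.23 ± 0.13). HMGA1, a chromatin architectural protein, gave 9.89, 10.07 and 9.90 in PF1066R, against 12.15, 11.93 and 12.05 in Parental (-2.09 ± 0.12), although a second probe of it changed by -0.27. The groups were apart for both, which was a condition of ranking among the largest changes. PLAUR, the urokinase receptor (-1.39), JUNB (-1.32), TRIB1 (-1.25), EGR1 (-1.13), FOSB (-1.09) and MYC (-0.95) were lower, and FOSL1 (-0.67) and FOS (-0.48) less so. The exception was JUN, at 8.42, 8.38 and 8.46 in PF1066R, against 7.93, 7.15 and 7.61 in Parental (0.86 ± 0.15, adjusted p = 0.000639).

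Among 14 feedback inhibitors 6 were lower (42.9%) and 2 higher (14.3%), against 9.37% and 9.09% of all genes. DUSP5 and DUSP6, phosphatases of nuclear and cytoplasmic ERK, gave 7.75, 8.15 and 8.10 in PF1066R, against 10.19, 9.72 and 10.03 in Parental (-1.98 ± 0.14), and 9.80, 9.67 and 10.03 in PF1066R, against 11.01, 11.16 and 11.19 in Parental (-1.28 ± 0.13). ERRFI1, which binds and blocks EGFR family kinases, gave 9.42, 9.09 and 9.43 in PF1066R, against 11.47, 11.29 and 11.44 in Parental (-2.09 ± 0.13). Every PF1066R array lay below every Parental array for these 3 genes. For DUSP5 and ERRFI1 this was a condition of ranking among the largest changes. In the opposite direction, SPRY4, a Sprouty inhibitor of RAS-ERK signalling, was higher (7.95, 8.12 and 8.35 in PF1066R, against 7.35, 7.59 and 7.22 in Parental, 0.75 ± 0.13), but its 3 other probes changed by -0.04 to 0.12. LRIG1, which promotes breakdown of ERBB receptors, was higher by 0.58 ± 0.13.

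Of 24 genes of the PI3K, AKT and mTOR pathway, 2 were higher and 2 lower, shares close to those of all genes, with 1 and 4 under median centring and 1 lower without PF1066R replicate 1 or 2 or Parental replicate 1. PIK3IP1, a membrane inhibitor of PI3K, gave 7.22, 7.40 and 7.94 in PF1066R, against 6.38, 6.45 and 6.67 in Parental (1.02 ± 0.17), and the kinase SGK1 gave 10.84, 10.49 and 11.09 in PF1066R, against 10.26, 10.11 and 10.03 in Parental (0.67 ± 0.15). DDIT4, a stress-induced inhibitor of mTORC1, gave 9.72, 10.23 and 10.71 in PF1066R, against 11.34, 11.34 and 11.22 in Parental (-1.08 ± 0.20), with the PF1066R arrays more spread than the Parental ones. DEPTOR, another mTOR inhibitor, was lower by a smaller amount (-0.43 ± 0.12).

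Most enzymes of sterol synthesis and most genes of fatty acid synthesis were higher, while few genes that take up, store or burn lipid passed the test. Cells short of sterol are known to release SREBP factors, which switch these synthesis genes on. Sterol enzymes had 12 of 18 members higher and 0 lower (median 0.50), against 9.09% and 9.37% of all genes, and 6 higher and 1 lower with median-centred arrays and 7 higher with the brightness covariate. INSIG1, a sterol-responsive protein that retains SREBP factors in the endoplasmic reticulum, gave 9.68, 9.63 and 9.99 in PF1066R, against 7.31, 7.21 and 7.17 in Parental (2.53 ± 0.13, adjusted p = 1.25e-09). Along the pathway, ACAT2 and HMGCS1, which build HMG-CoA from acetyl-CoA, were higher by 1.64 ± 0.11 and 1.49 ± 0.13. IDI1, an isomerase of the isoprenoid stage (0.92 ± 0.11), SQLE and LSS, which epoxidise and cyclise squalene (1.21 ± 0.12 and 1.24 ± 0.11), and MSMO1, which removes methyl groups from lanosterol products (1.94 ± 0.12), were higher as well. MSMO1 gave 9.48, 9.35 and 9.42 in PF1066R, against 7.39, 7.66 and 7.37 in Parental. No array of one line reached the other, which was a condition of its ranking among the largest changes. SREBF1, which encodes the SREBP-1 factors, was higher (8.72, 9.29 and 9.54 in PF1066R, against 8.51, 7.93 and 8.24 in Parental, 0.95 ± 0.17), while SREBF2 changed by -0.01 ± 0.10 (adjusted p = 0.961). None of 7 tested genes of sterol uptake and export passed, among them the LXR factor NR1H3 and NPC1, and with median-centred arrays 2 of them were lower.

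Fatty acid synthesis had 10 of 17 members higher and 0 lower, or 3 and 0 with median-centred arrays, and 6 higher with the brightness covariate. ACSS2, which makes acetyl-CoA from acetate, gave 9.98, 9.43 and 9.69 in PF1066R, against 7.67, 7.17 and 7.16 in Parental (2.37 ± 0.15). SCD, a desaturase of saturated fatty acids, gave 10.60, 10.68 and 10.94 in PF1066R, against 8.47, 8.76 and 8.69 in Parental (2.10 ± 0.12), and ACSL1, which activates long-chain fatty acids, gave 7.85, 7.66 and 8.12 in PF1066R, against 6.32, 6.23 and 6.32 in Parental (1.59 ± 0.12). These 3 stayed higher with median-centred arrays. The synthase FASN (0.58 ± 0.12) and the carboxylase ACACA (0.54) were higher by less and lost their call with median-centred arrays, and ACLY, which makes acetyl-CoA from citrate, gave 0.25 ± 0.19 (adjusted p = 0.460). Among 13 storage and uptake genes 3 were lower, FABP5, a fatty acid carrier (-0.89 ± 0.10), PPARG, a nuclear receptor of lipid storage (-0.83 ± 0.10), and PNPLA2, a triglyceride lipase (-0.54), and 0 were higher. PPARG was above background on 2 of 3 PF1066R and 3 of 3 Parental arrays, and a second FABP5 probe changed by -0.17. Fatty acid oxidation had 1 of 19 members lower (5.26%) and 0 higher, against 9.37% and 9.09% of all genes.

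Interferon effector genes were higher broadly, and the genes of interferon reception were mixed. Type I interferons are known to switch on antiviral genes through the interferon-stimulated response element in their promoters. Stretches of 57 bases with a match to 9 letters of this element, GAAANNGAA, are shown for the 4 effectors with the largest rise. They come from RefSeq promoters on GRCh38.p14 and are read 5′ to 3′ on the strand of the gene. The first match in each promoter is in capitals, and in IFIT1 and IFI44 it lies on the opposite strand. The IFIT1 stretch holds a further match, left in lower case. A further match in the MX1 stretch overlaps the end of the marked one, so only part of it is in lower case.
IFI6 (chr1:27672316-27672372, - strand): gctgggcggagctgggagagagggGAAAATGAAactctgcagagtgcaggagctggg
MX1 (chr21:41420545-41420601, + strand): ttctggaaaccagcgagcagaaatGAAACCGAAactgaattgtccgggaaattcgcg
IFIT1 (chr10:89392484-89392540, + strand): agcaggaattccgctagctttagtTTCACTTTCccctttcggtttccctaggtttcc
IFI44 (chr1:78649748-78649804, + strand): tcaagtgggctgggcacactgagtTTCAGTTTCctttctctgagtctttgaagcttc
Counted from the first transcribed base as 0, the matches in capitals begin at -156 in IFI6, 11 in MX1, -115 in IFIT1 and -17 in IFI44. Promoters were searched on both strands from 250 bases before to 50 after the gene start, with each counted once. Of the interferon list, only effectors with a promoter sequence were searched. The letters occur in 14 of 21 promoters of effectors that rose (66.7%) and in 10 of 12 of the other effectors (83.3%). Over all 27305 promoters the share is 8.29%. The match was thus common among these effectors and not more common among those that rose. For enzymes and control genes of the sterol list, the letters TCACCCCAC or TCACGCCAC occur in 0 of 13 promoters of members that rose. They occur in 1 of 9 others and in 0.59% of all promoters in the same window.

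Of 38 effectors tested, 24 were higher and 1 lower in PF1066R (median 0.52), and 15 and 1 with median-centred arrays. The higher share was 63.2% and the lower 2.63%, against 9.09% and 9.37% of all genes. IFI6, an antiviral protein of cell membranes, gave 11.24, 11.45 and 11.35 in PF1066R, against 8.93, 9.07 and 9.56 in Parental (2.16 ± 0.14, adjusted p = 2.13e-08). MX1, a GTPase that traps viral particles, gave 9.79, 9.50 and 9.81 in PF1066R, against 7.50, 7.70 and 7.73 in Parental (2.06 ± 0.12). IFIT1, which binds viral RNA ends, gave 8.25, 8.15 and 8.38 in PF1066R, against 6.35, 6.14 and 6.44 in Parental (1.95 ± 0.11). IFI44, a GTP-binding antiviral protein, gave 8.88, 8.51 and 8.74 in PF1066R, against 6.96, 6.75 and 7.22 in Parental (1.73 ± 0.16). In all 4 the lines were apart, which was a condition of ranking among the largest changes. OAS1, a sensor that activates RNase L, was higher by 1.44 ± 0.12, and OAS2 lay above background on 3 of 3 PF1066R and 0 of 3 Parental arrays, at least 2.05-fold higher. ISG15, a ubiquitin-like modifier, was higher by 1.04 ± 0.11, and the PARP family members PARP9 and PARP14 by 1.21 and 1.04. Effectors that did not pass included RSAD2, IFIT3 and BST2 (adjusted p = 0.0964, 0.401 and 0.527), although another IFIT3 probe passed at 0.62. IFITM2 was lower (-0.49 ± 0.13), while its neighbours of close sequence, IFITM1 and IFITM3, changed by 0.39 and 0.06. Of 8 leukocyte markers looked for 4 passed the filter and none of these passed the test, and PTPRC, the defining one, was above background on 1 of 3 PF1066R and 1 of 3 Parental arrays. The summed linear signal of the 4 was 440 to 463 units in PF1066R and 364 to 427 units in Parental. A part of leukocytes in the interferon changes was not tested.

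Upstream of the effectors, IRF9 gave 10.26, 10.40 and 10.56 in PF1066R, against 9.50, 9.50 and 9.59 in Parental (0.88 ± 0.11), and IRF7 (0.59 ± 0.11) and IRF1 (0.60) were higher. The receptor subunit IFNAR1 was higher (0.47), while both chains of the interferon-gamma receptor, IFNGR1 (-0.45 ± 0.13) and IFNGR2 (-0.65 ± 0.13), and the kinase JAK1 (-0.42 ± 0.14) were lower. IFNGR1 and JAK1 lost their calls with the brightness covariate and without PF1066R replicate 1 or 2 or Parental replicate 1 or 3, while IFNGR2 kept its call in these fits. With median-centred arrays none of the receptors and factors was higher and 3 were lower. The RNA sensor IFIH1 (0.38 ± 0.12) and the adaptor STING1 (0.43 ± 0.14) were higher by little, and STING1 values overlapped between the lines. IFNE, an epithelial type I interferon, changed by -0.30 ± 0.16 (adjusted p = 0.241).

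Class I antigen presentation had 13 of 19 members higher and 0 lower (median 0.66), and 5 and 0 with median-centred arrays. The higher share was 68.4%, against 9.09% of all genes. HLA-B gave 10.12, 10.48 and 10.19 in PF1066R, against 8.90, 8.59 and 8.73 in Parental (1.52 ± 0.20), HLA-F 8.57, 8.90 and 8.41 in PF1066R, against 7.24, 7.39 and 7.22 in Parental (1.35 ± 0.12), and PSMB8, a subunit of the immunoproteasome, 8.40, 8.52 and 8.35 in PF1066R, against 7.23, 7.22 and 7.25 in Parental (1.19 ± 0.10). HLA genes are near-identical in sequence, so which of them a probe reads is uncertain. PSMB9 (0.86) and PSMB10 (0.99), the other catalytic subunits, TAP1, which pumps peptides into the endoplasmic reticulum (0.79 ± 0.10), and TAPBP, which loads them (0.73), were higher. B2M, the light chain, gave 11.71, 11.60 and 12.21 in PF1066R, against 11.60, 10.78 and 11.35 in Parental, with overlapping arrays and a rise of 0.60 ± 0.20 (adjusted p = 0.0428). Of 7 class II genes HLA-DMA (0.67) and CD74 (0.49) were higher and HLA-DMB lower (-0.48), whereas with median-centred arrays none was higher and 1 was lower. HLA-DMB lost its call with the brightness covariate and without PF1066R replicate 1 or 2 or Parental replicate 1 or 3, and CD74 with the brightness covariate and without PF1066R replicate 3.

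**Figure D4:**
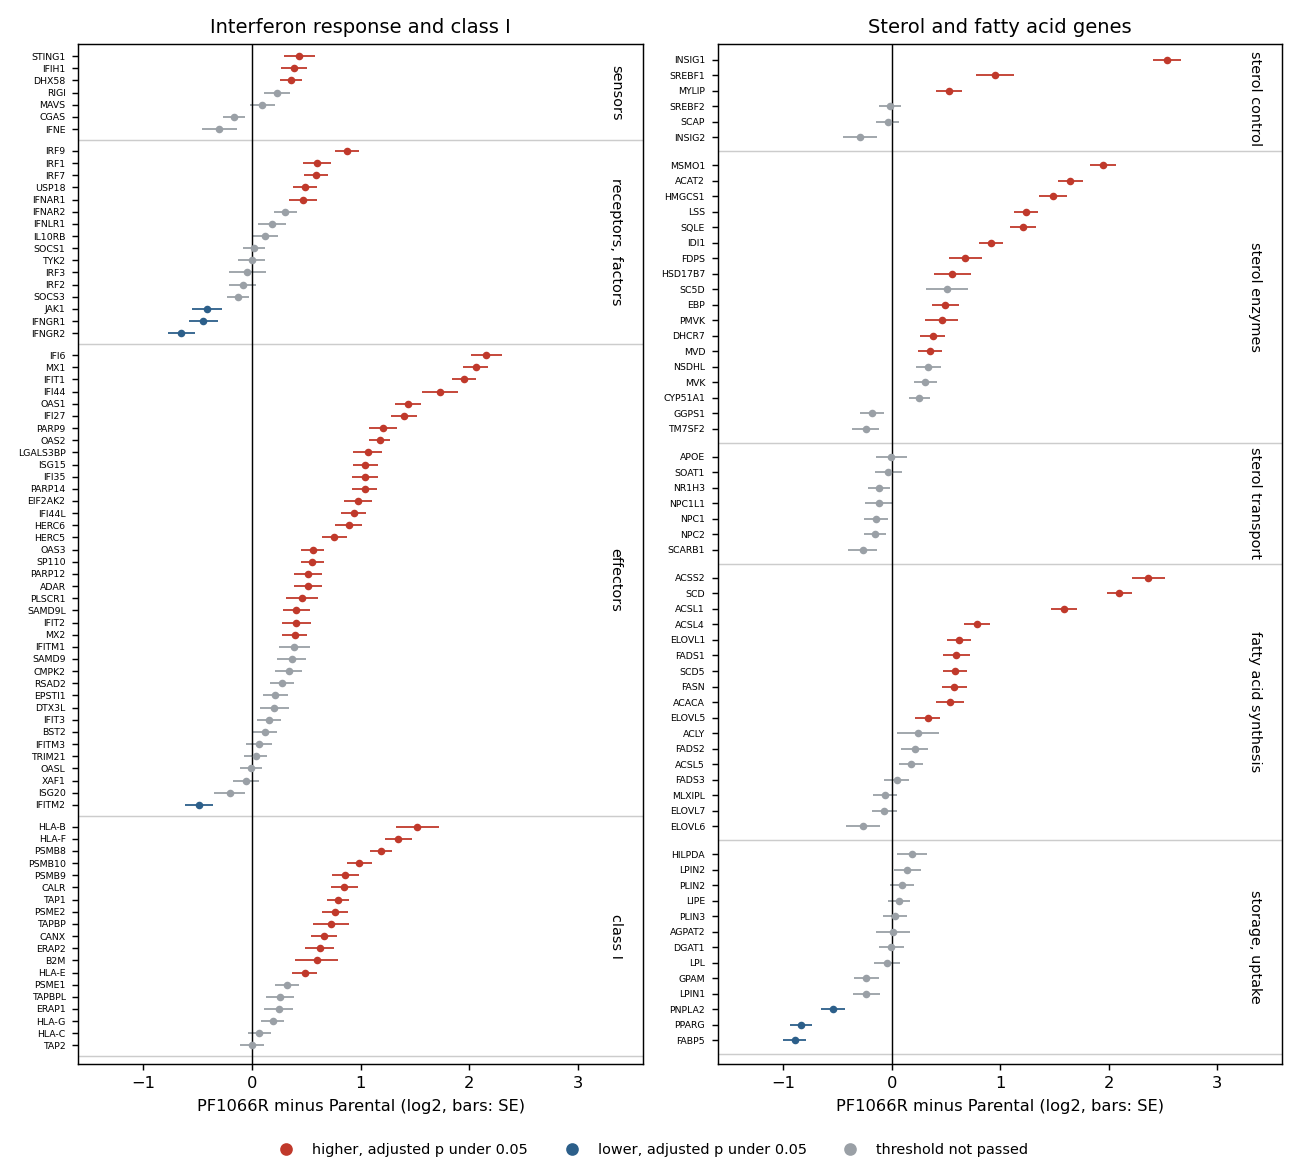
Change in PF1066R against Parental (log2, bars are SE) for every tested member of the interferon and class I lists on the left and of the sterol and fatty acid lists on the right, ordered by size within each role. Effectors, class I genes and synthesis enzymes lie mostly to the right of 0, receptors lie on both sides, and sterol transport and lipid storage genes lie around or below 0.

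Several enzymes that handle drugs and reactive carbonyls were higher. CYP1A1, an oxidase of aromatic compounds and a target of the aryl hydrocarbon receptor, gave 9.12, 9.28 and 9.25 in PF1066R, against 7.31, 7.15 and 7.25 in Parental (1.98 ± 0.15, adjusted p = 1.01e-07). CYP1A2, a liver enzyme of the same family, was above background on 3 of 3 PF1066R and 0 of 3 Parental arrays, at least 1.51-fold higher. TIPARP, another target of that receptor, moved the opposite way (8.43, 7.93 and 8.19 in PF1066R, against 9.03, 8.93 and 8.84 in Parental, -0.75 ± 0.13). FMO5, a flavin monooxygenase (1.13 ± 0.11), and CYP2J2 (0.68) were higher, and the vitamin D hydroxylase CYP24A1, which was above background on 0 of 3 PF1066R and 3 of 3 Parental arrays, was at least 1.96-fold lower. Of 17 conjugating enzymes 7 were higher and 0 lower, or 2 and 1 with median-centred arrays. The glutathione transferases GSTT1 (1.00 ± 0.13), MGST3 (0.90 ± 0.11) and GSTP1 (0.85 ± 0.16) led them.

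AKR1C2, a reductase of steroids and carbonyls, gave 9.90, 9.80 and 9.48 in PF1066R, against 7.29, 7.32 and 7.38 in Parental (2.39 ± 0.12), and AKR1C4 gave 8.66, 9.05 and 8.78 in PF1066R, against 6.90, 7.25 and 7.20 in Parental (1.71 ± 0.15). These reductases are near-identical, so which of them the probes read is uncertain, and a second AKR1C2 probe changed by 0.15. Other genes driven by NRF2, the oxidant-response factor, were divided. GCLC and GCLM, the subunits that make the glutathione precursor, were higher (0.78 ± 0.11 and 0.70 ± 0.18), NFE2L2, which encodes NRF2, was lower (-0.72 ± 0.12), and NQO1 and HMOX1 changed by -0.03 ± 0.14 and 0.06 ± 0.13, neither past the threshold. In all, 8 of 20 were higher and 4 lower, against 1 and 5 with median-centred arrays, 5 and 2 with the brightness covariate, and 2 lower without Parental replicate 1.

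Members of the aldehyde dehydrogenase family moved in opposite directions. ALDH1A1, which makes retinoic acid and marks stem-like cells, was higher (0.74 ± 0.14) and above background on 3 of 3 PF1066R and 1 of 3 Parental arrays. ALDH1A3, of the same activity, gave 7.77, 7.75 and 7.69 in PF1066R, against 9.68, 9.20 and 9.32 in Parental (-1.67 ± 0.14), and ALDH2, the mitochondrial acetaldehyde enzyme, gave 7.72, 7.71 and 7.79 in PF1066R, against 8.84, 8.61 and 8.54 in Parental (-0.92 ± 0.11). ALDH1A1 was thus higher and the other two lower, each with no overlap between the lines. Over the family 5 of 17 were higher (3 without PF1066R replicate 1 or Parental replicate 2) and 3 lower, or 2 and 4 with median-centred arrays. Of 18 ABC transporters 4 were higher and 1 lower, or 1 and 1 with median-centred arrays. ABCC4, an exporter of organic anions, gave 9.66, 9.23 and 9.32 in PF1066R, against 8.74, 8.43 and 8.80 in Parental (0.75 ± 0.13), ABCB6, a porphyrin carrier, rose by 0.70 ± 0.11, and ABCC3, an exporter of conjugates, fell (7.61, 7.90 and 7.91 in PF1066R, against 8.84, 8.45 and 8.79 in Parental, -0.89 ± 0.14). ABCB1, the multidrug exporter, was above background on 0 of 3 PF1066R and 2 of 3 Parental arrays and changed by -0.13 ± 0.11 (adjusted p = 0.516). SLCO4A1, an uptake carrier of thyroid hormone, was lower (-1.04).

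Markers of the lung lineage moved in both directions. NKX2-1, the lineage factor of lung adenocarcinoma, gave 8.78, 8.56 and 8.54 in PF1066R, against 7.72, 8.03 and 7.99 in Parental (0.71 ± 0.12), and SOX2, a factor of airway basal and stem cells, gave 9.50, 9.49 and 9.55 in PF1066R, against 7.88, 7.94 and 7.89 in Parental (1.61 ± 0.12). MUC1, a membrane mucin of alveolar and glandular cells, gave 11.28, 11.44 and 11.44 in PF1066R, against 9.94, 9.58 and 9.33 in Parental (1.77 ± 0.14). In these 3 genes each PF1066R array exceeded each Parental array. For MUC1 this was a condition of ranking among the largest changes. HOPX, an alveolar homeodomain cofactor, was above background on 3 of 3 PF1066R and 0 of 3 Parental arrays, at least 2.28-fold higher, though a second probe changed by 0.07. CEACAM6 (1.10 ± 0.12) and the alveolar protease NAPSA (0.47 ± 0.12) were higher, and SFTPB, a surfactant protein, was above background on 1 of 3 PF1066R and 2 of 3 Parental arrays and changed by -0.07 ± 0.12. Secretory and goblet markers had 9 higher and 9 lower of 26. The higher count was less stable, at 4 with median-centred arrays, 5 with the brightness covariate, 4 without PF1066R replicate 1, and 5 without PF1066R replicate 3, Parental replicate 1 or Parental replicate 3. Beside RNASE1 and MSMB, PIGR, the receptor that carries antibodies across epithelium (0.99 ± 0.12), and the mucin MUC16 (0.93 ± 0.11) were higher. MUC2, a gel-forming mucin, gave 6.34, 6.77 and 6.30 in PF1066R, against 8.49, 8.35 and 8.44 in Parental (-1.95 ± 0.13), and SLPI, an inhibitor of leukocyte elastase, gave 8.17, 7.87 and 8.43 in PF1066R, against 10.01, 9.66 and 9.85 in Parental (-1.68 ± 0.14). BPIFA1, an airway surface protein (-1.12 ± 0.16), the trefoil peptide TFF1 (-1.07 ± 0.11), FCGBP, a mucus protein (-0.92 ± 0.11), and MUC4 (-0.81 ± 0.15) were lower, while the trefoil peptide TFF3 changed by -0.03 ± 0.13.

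Transcription factors of stem and lineage programs had 5 of 32 members higher and 9 lower, or 4 and 16 with median-centred arrays. PITX1, a homeodomain factor, gave 8.47, 8.77 and 8.47 in PF1066R, against 10.01, 10.23 and 9.81 in Parental (-1.45 ± 0.14), and HEY1, a Notch target, gave 6.79, 6.85 and 6.69 in PF1066R, against 7.85, 7.86 and 8.06 in Parental (-1.14 ± 0.10). RUNX1 (0.83 ± 0.15) and AXIN2, a target and brake of Wnt signalling (0.91 ± 0.13), were higher. Neuroendocrine markers had 2 of 9 lower, and 1 lower with any 1 PF1066R array left out or without Parental replicate 2 or 3. STMN3, a tubulin-binding protein, gave 7.07, 7.20 and 7.51 in PF1066R, against 9.80, 9.50 and 9.33 in Parental (-2.28 ± 0.15).

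The main epithelial keratins did not pass the test. The keratins KRT8, KRT18 and KRT19 changed by 0.25 ± 0.11, -0.05 ± 0.14 and 0.02 ± 0.15, none past the threshold, and KRT7 by -0.43 ± 0.15 (adjusted p = 0.0562). CDH1, the epithelial cadherin, was slightly lower (9.74, 9.50 and 9.74 in PF1066R, against 10.22, 9.89 and 10.10 in Parental, -0.41 ± 0.12). Desmoplakin, DSP, was higher (0.74 ± 0.10), and KRT80 was lower (-1.11 ± 0.12). Of 30 genes of epithelial identity 4 were higher and 6 lower, or 0 and 7 with median-centred arrays. Of 20 mesenchymal genes 1 was higher and 6 were lower, including TGFBI, a matrix protein (-1.11 ± 0.13), the ecto-nucleotidase NT5E (-0.85), the hyaluronan receptor CD44 (-0.71 ± 0.12, with other probes at -0.07 and 0.01) and the neural cadherin CDH2 (-0.55 ± 0.11). The vimentin gene VIM gave 6.68, 6.86 and 6.93 in PF1066R, against 6.60, 6.57 and 6.48 in Parental, a difference of 0.27 ± 0.11 that missed the threshold (adjusted p = 0.0911).

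Markers of other cell types were mostly dim, and 15 of the 24 looked for passed the filter, with a summed linear signal of 1331 to 1379 units in PF1066R and 1144 to 1205 units in Parental. The sums in PF1066R and in Parental were 523 to 546 and 512 to 525 for fibroblast markers. They were 440 to 463 and 364 to 427 for leukocyte markers, and 345 to 393 and 252 to 268 for endothelial markers. Of 7 fibroblast, 4 leukocyte and 4 endothelial markers tested, COL3A1 (0.34 ± 0.11) and CDH5, the endothelial cadherin (1.38 ± 0.13), were higher and none was lower. CDH5 was above background on 3 of 3 PF1066R and 1 of 3 Parental arrays, while PECAM1, a defining endothelial marker, was above background on 1 of 3 PF1066R and 3 of 3 Parental arrays and changed by -0.02 ± 0.10. Their part in the results was not tested.

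Integrin, laminin and TGF-beta target genes were mostly lower where they changed. Integrin and focal adhesion genes had 8 of 24 members lower (33.3%) and 0 higher, against 9.37% and 9.09% of all genes. ITGB5, a chain of the vitronectin receptor, gave 7.96, 7.94 and 7.93 in PF1066R, against 9.96, 10.02 and 10.07 in Parental (-2.07 ± 0.12, adjusted p = 3.59e-09), and 2 of its 4 other probes also fell while the remaining 2 changed by -0.07 and -0.03. ITGA2, of the collagen receptor, gave 7.43, 7.65 and 7.50 in PF1066R, against 8.58, 8.91 and 8.60 in Parental (-1.17 ± 0.12). FERMT1, an integrin activator (-1.03 ± 0.11), the focal adhesion protein ZYX (-0.94 ± 0.13) and ITGA3, of the laminin receptor (-0.82 ± 0.15), were lower, and the shared chain ITGB1 changed by -0.32 ± 0.13 (adjusted p = 0.111). In the matrix, the laminin chains LAMB3 (-1.50 ± 0.12), LAMA5 (-0.86 ± 0.15) and LAMC1 (-0.83 ± 0.16) were lower, with a second LAMB3 probe at -0.10. ECM1, a glycoprotein of skin and vessels, gave 8.04, 8.26 and 8.53 in PF1066R, against 6.52, 6.49 and 6.54 in Parental (1.76 ± 0.12), and GPC4, a heparan sulphate proteoglycan, was higher (1.12 ± 0.15). The matrix list had 4 higher (9.76%) and 8 lower (19.5%) of 41, against 9.09% and 9.37% of all genes.

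Targets of TGF-beta, BMP and YAP had 8 of 22 members lower and 1 higher. PMEPA1, a TGF-beta target that limits SMAD signalling, gave 7.31, 7.52 and 7.43 in PF1066R, against 9.24, 9.12 and 8.85 in Parental (-1.65 ± 0.12), and CCN2, a target of both TGF-beta and YAP, gave 8.15, 7.74 and 7.86 in PF1066R, against 9.49, 9.39 and 9.62 in Parental (-1.58 ± 0.12). BAMBI, a decoy receptor (-1.24 ± 0.12), and the signal carrier SMAD3 (-1.13 ± 0.16) were lower as well. The inhibitor SMAD7 was lower (-0.49 ± 0.11). Of 9 ligands and receptors tested 3 were lower (33.3%, against 9.37% of all genes) and 0 higher.

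Protease inhibitors, among them SERPINE2, SERPINA3 and SLPI, were lower where the test was passed, with 1 exception. In this list 7 of 20 protease inhibitors were lower and 1 higher, and 8 of 23 proteases and their receptors were lower and 4 higher. PLAT, the tissue plasminogen activator, gave 7.39, 7.97 and 7.95 in PF1066R, against 6.64, 6.54 and 6.43 in Parental (1.23 ± 0.14), and the cathepsins CTSS (0.90 ± 0.15), CTSD (0.94 ± 0.15) and CTSV (0.94 ± 0.13) were higher. The cytoskeletal list had 5 higher and 10 lower of 33, or 1 and 14 with median-centred arrays, with 3 higher without PF1066R replicate 1 or Parental replicate 3 and 5 lower with the brightness covariate. FSCN1, which bundles actin, was lower (-1.14 ± 0.17). STMN1, a tubulin-binding protein related to STMN3, was higher (1.05 ± 0.12), though its 2 other probes changed by 0.00 and 0.23. Sialyltransferases moved apart, with ST3GAL1 (-1.11 ± 0.12) and ST6GAL1 (-0.94 ± 0.11) lower and ST6GALNAC1 higher (1.01 ± 0.13).

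Many genes of the ATF4 amino acid response were lower, and no factor or target was higher. This response is known to raise amino acid synthesis and uptake when amino acids are short. Of 28 factors and targets 13 were lower and 0 higher. TRIB3, a pseudokinase induced by ATF4, gave 7.56, 7.56 and 8.04 in PF1066R, against 9.19, 9.64 and 9.69 in Parental (-1.78 ± 0.16), and CEBPG, a partner factor of ATF4, gave 7.95, 7.85 and 8.34 in PF1066R, against 9.62, 9.25 and 9.34 in Parental (-1.36 ± 0.16). ATF4 itself gave 11.72, 11.86 and 11.56 in PF1066R, against 12.33, 12.36 and 12.49 in Parental (-0.68 ± 0.12). All 3 had every PF1066R array below every Parental array. For TRIB3 this was a condition of ranking among the largest changes. ASNS, the asparagine synthetase (-0.89 ± 0.14), and the amino acid carriers SLC7A1 (-1.14 ± 0.14) and SLC3A2 (-0.72 ± 0.14) were lower. Aminoacyl-tRNA synthetases were mixed, SARS1 (-0.93 ± 0.16) and AARS1 (-0.74 ± 0.12) lower and RARS1 higher (0.68 ± 0.15).

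Single enzymes of methionine and polyamine metabolism changed strongly. MAT2A, which makes S-adenosylmethionine, gave 9.79, 9.90 and 9.84 in PF1066R, against 12.14, 12.21 and 12.11 in Parental (-2.31 ± 0.14, adjusted p = 5.13e-09). ODC1, the ornithine decarboxylase that starts polyamine synthesis, gave 8.74, 8.81 and 8.55 in PF1066R, against 10.89, 10.94 and 10.87 in Parental (-2.20 ± 0.11). The lines were more than 2 log2 units apart at their nearest arrays for both. SMOX, a spermine oxidase (-0.95 ± 0.12), and AHCY, which clears S-adenosylhomocysteine (-0.58 ± 0.13), were also lower, OAZ2, an ornithine decarboxylase antizyme, was higher (0.42 ± 0.12), and 15 of 20 members did not pass.

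Respiratory, chaperone and replication genes were more often higher than lower after quantile normalization but not with median-centred arrays. Respiratory chain genes had 8 of 35 members higher and 0 lower, or 1 and 1 with median-centred arrays. The higher count was 4 with the brightness covariate or without PF1066R replicate 2 and 5 without Parental replicate 2. NDUFA2, a subunit of complex I, was the highest of them (10.76, 10.94 and 10.84 in PF1066R, against 9.80, 10.06 and 9.57 in Parental, 1.03 ± 0.12). In glycolysis the enolase ENO1 was higher (0.85 ± 0.11) and the glucose carrier SLC2A1 lower (-0.72 ± 0.14). Of 23 glycolysis genes 3 were higher and 3 lower, or 0 and 4 with median-centred arrays. Ribosomal protein genes had 10 of 38 lower and 0 higher, and 23 lower with median-centred arrays. The lower count was 3 with the brightness covariate, 5 without PF1066R replicate 2, 4 without PF1066R replicate 3 and 6 without Parental replicate 1. RPS7 was lowest (8.46, 8.16 and 8.58 in PF1066R, against 9.60, 9.71 and 9.77 in Parental, -1.30 ± 0.12), and a second probe changed by -1.32. Heat shock and chaperone genes had 11 higher and 2 lower of 35, or 1 and 3 with median-centred arrays. HSPA1B was higher (1.15 ± 0.12) and DNAJB1, its co-chaperone, lower (-1.11 ± 0.14). The probe of HSPA1A, which is near-identical to HSPA1B, changed by 0.06. Lysosome and autophagy genes had 8 of 30 higher and 1 lower, or 3 and 2 with median-centred arrays. LAMP2, a lysosomal membrane protein (1.22 ± 0.10), GLA, which removes galactose from glycolipids (1.04 ± 0.13), and SQSTM1, which carries cargo to autophagosomes (0.97 ± 0.13), rose most.

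DNA replication genes had 14 of 38 members higher and 2 lower, but 1 and 4 with median-centred arrays. E2F2, an activating cell cycle factor, gave 8.45, 8.48 and 8.44 in PF1066R, against 7.21, 7.43 and 7.26 in Parental (1.16 ± 0.10), and the helicase components CDC45 (0.79 ± 0.12) and MCM5 (0.77 ± 0.12) were higher. Mitotic genes had 2 of 32 higher and 2 lower, or 0 and 5 with median-centred arrays, and 1 higher with any 1 Parental array left out. At 6.25% each, their higher and lower shares lay below those of all genes (9.09% and 9.37%). Histone genes had 8 of 19 higher and 2 lower, or 0 and 4 with median-centred arrays, and near-identical copies such as H2BC5 (0.89 ± 0.14) and H2BC21 (0.82 ± 0.11) may share probes.

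In the BCL2 family both death-promoting and survival genes were lower. Of 16 BCL2 family genes 7 were lower and 0 higher (4 lower without PF1066R replicate 1, PF1066R replicate 3 or Parental replicate 3, and 3 with the brightness covariate), among them the death-promoting BIK (-0.75 ± 0.10) and the survival gene BCL2L1 (-0.47 ± 0.13). TNFRSF10B, a death receptor for TRAIL, gave 8.14, 8.32 and 8.57 in PF1066R, against 9.20, 9.57 and 9.76 in Parental (-1.16 ± 0.14), and CFLAR, which blocks caspase 8 at such receptors, gave 8.27, 8.30 and 8.45 in PF1066R, against 7.32, 7.53 and 7.24 in Parental (0.98 ± 0.13). TNFSF10, which encodes TRAIL and is also an interferon target, gave 7.85, 7.58 and 7.89 in PF1066R, against 6.47, 6.36 and 6.56 in Parental (1.31 ± 0.11). The receptor was lower, and its ligand and its inhibitor were higher, with no overlap of arrays. Chemokines were mixed, with CXCL1 (0.57 ± 0.11) and CCL20 (0.44 ± 0.14) higher and CXCL8 lower (-0.65 ± 0.15). Of 22 cytokine genes tested 5 were higher and 3 lower, or 1 and 3 with median-centred arrays. CFB, complement factor B, was lower (8.23, 8.09 and 8.67 in PF1066R, against 10.05, 9.71 and 9.56 in Parental, -1.44 ± 0.15).

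PF1066R was also set directly against the X-376-resistant line. That contrast called 2204 genes (16%), 1113 higher (8.08%) and 1091 lower (7.92%) in PF1066R. The genes named next were chosen because they passed in the same direction against X376R and against Parental, and both contrasts use the same PF1066R arrays. ALDH3A1 gave 9.81, 9.85 and 9.80 in PF1066R, against 6.41, 6.24 and 5.95 in X376R (3.62 ± 0.12, adjusted p = 2.11e-12), and SCD gave 10.60, 10.68 and 10.94 in PF1066R, against 7.43, 7.56 and 7.42 in X376R (3.27 ± 0.12). The interferon gene IFI27 gave 9.28, 9.59 and 9.44 in PF1066R, against 6.35, 6.23 and 6.19 in X376R (3.18 ± 0.12), so PF1066R was the highest of the 3 lines for each. X376R itself lay below Parental in these genes (X376R minus Parental -0.86, -1.17 and -1.78). The airway proteins BPIFB1 (3.25) and AGR2 (2.93), the adhesion protein CEACAM5 (2.46), AKR1C2 (2.30) and INSIG1 (2.28) were also higher. For BPIFB1 and AGR2 most of the gap lay in X376R, since PF1066R minus Parental was 0.39 and 0.47 while X376R minus Parental was -2.87 and -2.46. For AKR1C2 and INSIG1 it lay in PF1066R, since X376R minus Parental was 0.09 and 0.25. On the lower side, the protease inhibitor CST6 gave 6.94, 7.17 and 6.87 in PF1066R, against 10.67, 10.82 and 10.31 in X376R (-3.61 ± 0.13), TGFBI 7.54, 7.95 and 7.51 in PF1066R, against 10.77, 11.18 and 11.02 in X376R (-3.32 ± 0.13), and LGALS1, a galactoside-binding lectin, 7.15, 7.96 and 7.16 in PF1066R, against 10.63, 10.54 and 11.03 in X376R (-3.31 ± 0.18). ANXA1 (-2.92), CCN2 (-2.69), PMEPA1 (-2.75) and CDH2 (-2.31) were lower too. X376R exceeded Parental in all 7 of these genes, by 1.10 to 3.04, and PF1066R minus Parental was -0.57 for CST6, -1.11 for TGFBI and -0.55 for CDH2, so more of the gap lay in X376R for these 3, as it did for LGALS1 and ANXA1, and more lay in PF1066R for PMEPA1 and CCN2. ALK was higher in PF1066R than in X376R, at 9.39, 9.15 and 9.11 in PF1066R, against 7.04, 6.91 and 7.21 in X376R (2.16 ± 0.12, adjusted p = 6.27e-10). Genes outside this choice include some that changed in X376R too. X376R minus Parental was -2.66 for MAT2A, -2.09 for ODC1, -3.05 for PHLDA1 and 2.46 for CYP1A1, while it was -0.19 for ALK and -0.12 for IFI44. These values share the Parental arrays with the changes of PF1066R.

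The share of called genes differed between chromosomes, and no test of that difference was run. On chromosome X 71 of 495 tested genes were higher (14.3%) and 13 lower (2.63%) in PF1066R, against 9.09% and 9.37% of all genes. On chromosome 20 27 of 386 were higher (6.99%) and 72 lower (18.7%), and on chromosome 15 4.67% were higher and 14.4% lower. Chromosome X had the highest median change of the 23 chromosomes in all 18 settings run, including median centring, where 16 of its genes were higher and 27 lower. In runs of 11 neighbouring tested genes the median change lay between -0.163 and 0.161 in the middle 90% of 13514 runs. The highest run, from ECM1 to MINDY1 on chromosome 1, had a median of 0.507 with 6 genes higher and 0 lower, and includes CTSS. The next, from ATG4A to AMOT on chromosome X, had a median of 0.491 with 6 higher, among them COL4A5 and ACSL4. The lowest, from POLA2 to MAP3K11 on chromosome 11, had a median of -0.435 with 6 lower. These runs overlap each other, were picked as extremes and were not tested.

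**Figure D5:**
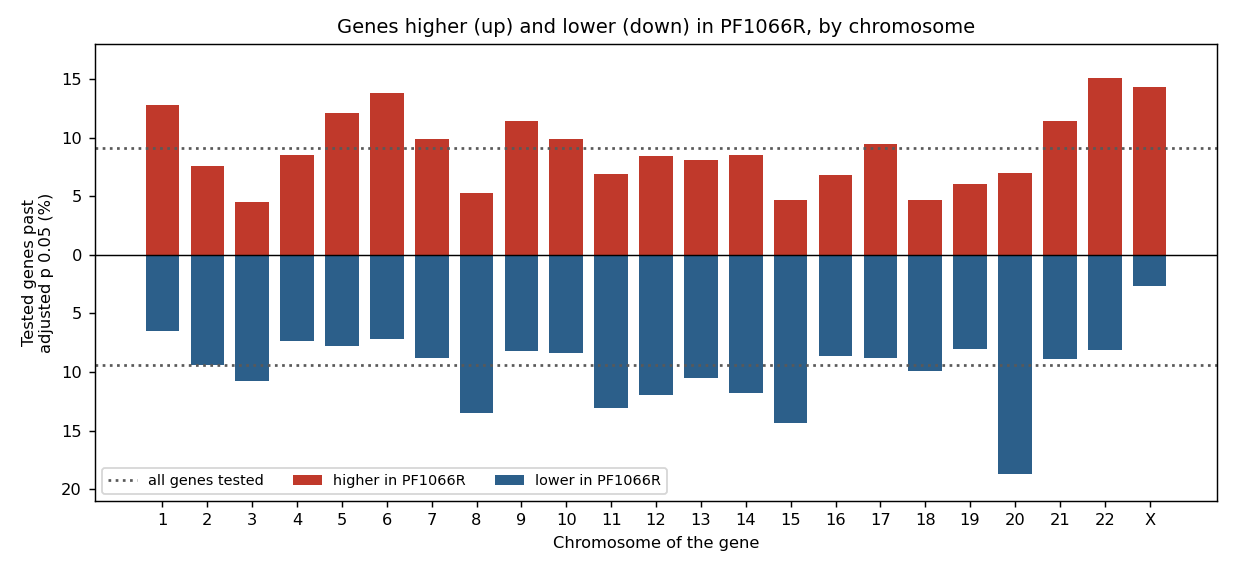
Percentage of the tested genes of each chromosome that passed an adjusted p of 0.05, higher in PF1066R drawn upward and lower drawn downward, with dotted lines for all genes tested (9.09% and 9.37%). Chromosome X has 14.3% higher and 2.63% lower, and chromosome 20 has 6.99% higher and 18.7% lower.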

How the data were processed

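RNA from 9 samples of the H3122 line was labelled with biotin as cRNA and hybridised to Illumina bead arrays, per the labels' protocols. The signal intensities were deposited by the authors without normalization, 1 value per probe and array for 47322 probes, and the scanner software and detection p-values were not used here. The authors also deposited a table of normalized log2 values, and R 2.15 is named per the submitters' processing notes. That table served only as an alternative. In every line its replicate 1 column followed the deposited signals less closely (correlations 0.9969 to 0.9974) than its other columns did (0.9998).

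Intensities were background-corrected with normexp (offset 50), quantile-normalized over the 9 arrays and put on the log2 scale with limma 3.58.1 in R 4.3.3. A probe was kept if it exceeded, on at least 3 of 9 arrays, the highest of 92 external control probes of its array, recognised by their identifiers. Names came from the platform annotation, updated to GRCh38.p14. Of 47323 probes 30113 had 1 gene symbol, 8 had several and 17202 had none, and the probe with the highest mean stood for each of 13769 genes. A gene was called not above background in a line if its probe was below that limit on all 3 arrays. lmFit and eBayes fitted 1 mean per line, and p-values were adjusted over all genes by the Benjamini-Hochberg method at 0.05. Adjusted p-values throughout are limma's. The fit was tested on simulated data.

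Genes were named by a rule: ALK and EML4, the 20 largest changes in each direction with arrays apart, up to 8 called members per role of 48 gene lists with heads of pathways whatever their value, the 10 largest differences from X376R in each direction, and neighbours of ALK, EML4 and of the extreme runs. The lists, the comparison and the rule were chosen with earlier results of these data known. Alternatives changed the background correction, normalization, filter, arrays, probe choice, prior, brightness term and replicates. The number of arrays limits the precision. Deviations of same-numbered PF1066R and Parental arrays correlated at -0.048 to 0.195, and those of differently numbered arrays at -0.167 to 0.141. The labels do not say what a number marks, so the numbers were not treated as pairs.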

Additional observations from a re-analysis of the deposited data

Results flagged for a closer look

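Probes without a gene name in the annotation entered no comparison of genes, and 8239 of them passed the filter on dim probes. Tested with every probe on its own, 547 of them passed an adjusted p of 0.05 in limma (6.64%), against 15.9% of probes with a name. Among these 280 were higher and 267 lower in PF1066R. The highest, ILMN_1725510, gave 9.50, 9.49 and 9.60 in PF1066R, against 7.74, 8.27 and 8.13 in Parental (1.48 ± 0.14). The lowest, ILMN_3258346, gave 6.61, 6.52 and 6.59 in PF1066R, against 8.85, 8.42 and 8.06 in Parental (-1.87 ± 0.15). The lines did not overlap for either probe, and what the probes read was not analysed here.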

How the results depend on the processing

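No gene called after quantile normalization was called in the opposite direction under any of the 17 alternatives run on genes. Most alternatives gave 2371 to 2945 called genes, against 2541. Normalizing and fitting only the 6 PF1066R and Parental arrays gave 2902 called genes of 12656 tested. Centring each array on its median gave a similar total, 2442, but split it into 215 higher and 2227 lower, with 50 higher and 428 lower by at least 2-fold, and 978 genes differed from X376R; 1501 of the calls were shared. That setting keeps the arrays' different distributions, and 50 of 259 named genes lost their call. With array brightness as a covariate 1254 genes passed, 629 higher and 625 lower, and 35 of 259 named genes lost their call, and PF1066R arrays were on average the dimmer ones. Testing every probe on its own gave 3493 called probes. Leaving out 1 array in turn gave 1844 to 2175 called genes, 915 to 1075 higher and 929 to 1100 lower. At 2-fold these fits gave 92 to 105 higher and 121 to 140 lower, and 1606 to 2187 genes different from X376R. Between 10 and 17 named genes lost their call in each. The genes were, without PF1066R replicate 1 AGR2, B2M, BPIFB1, CCL20, CRKL, DEPTOR, FOS, GCLM, HLA-DMB, IFIH1, IFITM2, IFNAR1, IFNGR1, JAK1, KIT, KITLG and OAZ2; without PF1066R replicate 2 AGR2, BCL2L1, BPIFB1, CCL20, CDH1, COL3A1, CRKL, DEPTOR, GCLM, HLA-DMB, IFNGR1, IGFBP2, JAK1, NAPSA, PDGFC and STING1; without PF1066R replicate 3 AMOT, B2M, BCL2L1, BPIFB1, CCL20, CD74, COL3A1, FOS, IFIH1, KITLG, OAZ2, PDGFC and STING1. They were, without Parental replicate 1 AGR2, CCL20, CDH1, COL3A1, DEPTOR, FOS, HLA-DMB, IFIH1, IFNAR1, IFNGR1, JAK1, KITLG, NAPSA, OAZ2 and PDGFC; without Parental replicate 2 AGR2, B2M, BCL2L1, CCL20, COL3A1, CRKL, DEPTOR, IFITM2, KITLG and STING1; without Parental replicate 3 AGR2, B2M, BCL2L1, BPIFB1, CDH1, COL3A1, HLA-DMB, IFIH1, IFNGR1, IGFBP2, JAK1, KITLG, MAP3K11, OAZ2, PDGFC and STING1. A fit with the replicate number as a block called 2879 genes, 1435 higher and 1444 lower. The labels do not say what a replicate number marks. Deviations of same-numbered PF1066R and Parental arrays correlated at -0.048 to 0.195, so the main fit used no block. Genes near background on 1 line have only a bound, which holds for 65 called genes.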
